A study of Mus musculus with 4 samples.

Results

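The miR-30 family is a group of microRNAs (miRNAs) that carry the same seed, the stretch of bases 2 to 8 through which a miRNA pairs with its target mRNAs. Its members were taken by name as the 5p arms mmu-miR-30a-5p, mmu-miR-30b-5p, mmu-miR-30c-5p, mmu-miR-30d-5p and mmu-miR-30e-5p (written below without the species prefix), which are 5 of the 1059 mature miRNAs counted, and all 5 were among the 274 that reached at least 10 counts in at least 2 libraries and were tested. Small RNA was sequenced from the rostral telencephalic primordium of mouse embryos at E11.5, in 2 libraries of mutants named Rx-Dicer, in which Rx-Cre deletes the floxed alleles of Dicer (Dicer F/F), and 2 libraries of controls. The controls are wild type in the genotype label and Dicer F/F in the protocol, and the Cre line was kept on a CD1 background and floxed Dicer on C57BL/6. Rx-Cre is active in the anterior neural plate and acts most strongly in the rostral and ventral telencephalon, so cells of other origin in the dissected tissue keep Dicer. How many embryos went into a library is not given in the sources used here, and p-values therefore measure only the spread between these libraries, which may be technical. Small RNA libraries do not measure the Dicer mRNA, so the deletion itself was not checked here.

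Dicer cuts the hairpin precursors of most miRNAs into short duplexes, from which a single strand is loaded into an Argonaute protein. The loaded miRNA finds mRNAs through its seed and lowers their stability and translation, and members of a family that share a seed can act on overlapping sets of targets. Mature miRNAs are often long-lived, so they can persist in a cell after Dicer is lost. Members of the miR-30 family are expressed in many tissues, the brain included.

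The library totals were 651031 and 516517 counts in Rx-Dicer replicates 1 and 2, and 1299067 and 1133553 counts in control replicates 1 and 2. Both mutant libraries were thus shallower than both controls, and a single miRNA took up much of each. That miRNA was miR-9-5p, an abundant miRNA of forebrain progenitors, with 28.2% and 29.4% of all counts in the Rx-Dicer libraries and 31.5% and 42.6% in the controls. The controls therefore differed from each other in miR-9-5p by more than control replicate 1 differed from either mutant. Of the 1211 rows counted (pairs of mature miRNA and precursor), only 114 were named as 3p arms. Shares and ranks given here are among the rows counted, not among all miRNAs of the tissue. To set libraries of unequal depth and composition on a common scale, counts were divided by TMM-scaled library totals and are given below as scaled CPM, the counts of a miRNA relative to that total.

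The labelled tissue was checked with miRNA markers of the forebrain. Of 7 such markers 5 were tested and none was at 0 in all libraries, with miR-9-5p making up 99.1% of their summed level. miR-124-5p, the passenger arm of a neuronal miRNA, had 148, 120, 432 and 274 counts in Rx-Dicer replicates 1 and 2 and control replicates 1 and 2. Markers of other tissues were present as well and are given beside the results below, together with the forebrain markers on the common scale.

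To see which sequences the counts stand for, the mature sequences were read from RefSeq (GRCm38.p6), where 3 of the 5 members matched by name. miR-30b-5p and miR-30d-5p did not. A search of the 1679 mature miRNAs in that table for the shared seed found 4, which are the 3 matched members and miR-384-5p, a miRNA from a hairpin on the X chromosome. They are shown with the seed in capitals, since the seed is what they share and the lower-case part is what tells their reads apart.
miR-30a-5p: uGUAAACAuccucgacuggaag
miR-30e-5p: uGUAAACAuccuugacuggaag
miR-30c-5p: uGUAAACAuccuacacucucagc
miR-384-5p: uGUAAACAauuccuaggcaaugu

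miR-30a-5p and miR-30e-5p are both 22 bases long and differ by the single substitution C13U, counted from the 5′ end of miR-30a-5p. miR-30c-5p has 23 bases, and its first 12 are those of miR-30a-5p and miR-30e-5p, while miR-384-5p shares only the first 8. How many mismatches the authors' counting allowed is not given in the sources used here, so reads may have been shared between miR-30a-5p and miR-30e-5p, and the values of both are uncertain to that extent.

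The hairpins lie in 3 groups of neighbours in GRCm38 (mm10), according to GENCODE. Mir30a (chr1:23272269-23272339, + strand, in no other annotated gene) and Mir30c-2 (chr1:23291701-23291784, + strand, in an exon of the lincRNA gene Gm27028) are 19361 bases apart. Mir30e (chr4:120772606-120772697, − strand) and Mir30c-1 (chr4:120769534-120769622, − strand) are 2983 bases apart, both in introns of Nfyc, which is transcribed from the same strand and codes for a subunit of the transcription factor NF-Y. Mir30d (chr15:68341208-68341289, − strand, in an exon of the lincRNA gene Gm20732) and Mir30b (chr15:68337415-68337510, − strand, in no other annotated gene) are 3697 bases apart. A hairpin named Mir30f lies antisense to Mir30e at the same coordinates, and miR-30f had 0 counts in all 4 libraries, which allows a share of up to 0.000231% to 0.000581% of a library (3 counts of the total).

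miR-30c-5p comes from the 2 hairpins on different chromosomes, shown here with the mature sequence in capitals because it is the same in both and reads of it cannot be assigned to either.
Mir30c-1: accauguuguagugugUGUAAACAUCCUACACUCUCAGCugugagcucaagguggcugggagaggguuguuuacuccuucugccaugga
Mir30c-2: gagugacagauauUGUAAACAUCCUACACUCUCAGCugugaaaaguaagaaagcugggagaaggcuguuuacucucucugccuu

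The counts on both precursors of miR-30c-5p were accordingly almost equal, at 4799 and 4800 in Rx-Dicer replicate 1, and only the row with the higher total was used. The 3p arms of the miR-30 hairpins were not analysed here.

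miR-30d-5p was the most abundant member, with 20614 and 18794 counts in Rx-Dicer replicates 1 and 2, and 52082 and 26689 counts in control replicates 1 and 2. On the common scale these are 27096 and 32046 CPM in the mutants, and 43283 and 28936 CPM in the controls. Control replicate 1 stood above the other 3 libraries and Rx-Dicer replicate 2 stood above control replicate 2, so the groups overlapped. By mean level over the 4 libraries miR-30d-5p ranked 5 among the 274 miRNAs tested. Its log2 fold change (Rx-Dicer over control) was −0.29 (SE 0.28, 95% interval −0.95 to 0.37), with an adjusted p of 0.740 (quasi-likelihood test of edgeR, Benjamini-Hochberg method over all tested miRNAs).

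miR-30a-5p had 11946 and 9226 counts in the mutants and 25880 and 15910 counts in the controls, or 15702 and 15732 CPM against 21508 and 17249 CPM. The mutant libraries were nearly equal and both lay below both controls, of which replicate 1 was again the higher. It ranked 11 by mean level, with a log2 fold change of −0.30 (SE 0.25, 95% interval −0.88 to 0.27) and an adjusted p of 0.713 in edgeR.

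miR-30c-5p had 4800 and 3312 counts in the mutants and 10614 and 7782 counts in the controls. These correspond to 6309 and 5647 CPM in the mutants and 8821 and 8437 CPM in the controls. Both mutants lay below both controls, and the controls were close to each other, unlike for miR-30d-5p and miR-30a-5p. Its log2 fold change of −0.53 (SE 0.24, 95% interval −1.09 to 0.03) was the lowest of the 5 members, with an unadjusted p of 0.0618 and an adjusted p of 0.497 in edgeR. DESeq2's Wald test gave an unadjusted p of 0.0473 and an adjusted p of 0.374, and over all alternatives the adjusted p ran from 0.118 to 0.986.

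miR-30e-5p had 4326 and 3124 counts in the mutants and 9474 and 5645 counts in the controls, or 5686 and 5327 CPM against 7873 and 6120 CPM. Both mutants lay below both controls, and control replicate 1 was the highest library. The log2 fold change was −0.35 (SE 0.26, 95% interval −0.95 to 0.25), with an adjusted p of 0.659 in edgeR.

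miR-30b-5p was far less abundant, with 156 and 102 counts in the mutants and 244 and 191 counts in the controls, or 205 and 174 CPM against 203 and 207 CPM. Rx-Dicer replicate 1 lay between the controls, so the groups overlapped, and Rx-Dicer replicate 2 was the lowest library. The log2 fold change was −0.11 (SE 0.27, 95% interval −0.75 to 0.53), with an adjusted p of 0.942 in edgeR.

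**Figure D1:**
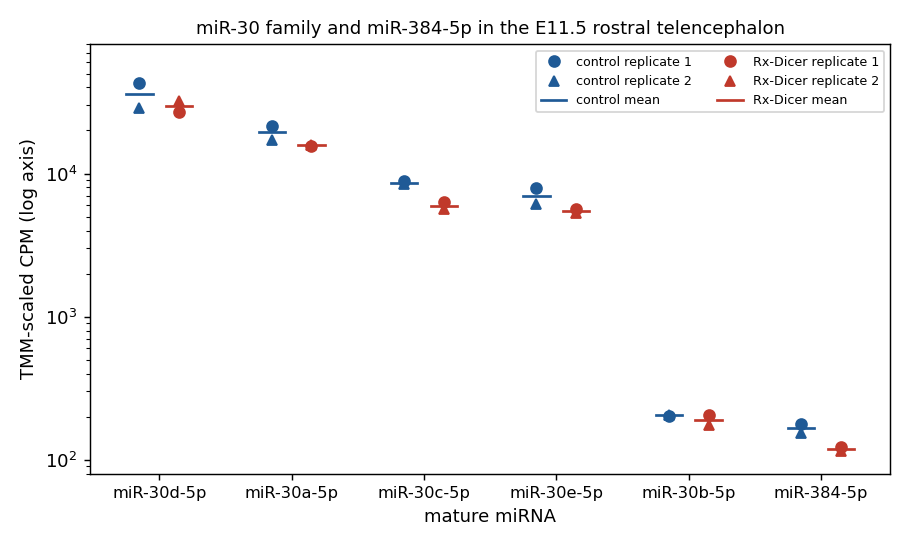
Levels of the 5 members and of miR-384-5p, which has the same seed, as TMM-scaled CPM on a log axis, with a point for each library (circle, replicate 1; triangle, replicate 2) and a line at each group's mean (blue, control; red, Rx-Dicer). For miR-30d-5p the mutants, at 27096 and 32046 CPM, lie on both sides of the lower control at 28936 CPM, whereas for miR-30c-5p both mutants (6309 and 5647 CPM) lie below both controls (8821 and 8437 CPM).

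None of the 5 members passed an adjusted p of 0.05, and none had an unadjusted p under 0.05 in edgeR with TMM, all 4 libraries and the minimum of 10 counts, against 1 (miR-30c-5p) in DESeq2. With no count minimum and with a minimum of 100 counts, edgeR gave miR-30c-5p an unadjusted p of 0.0193 and 0.0498. Over the 80 values of members under alternatives, 9 had an unadjusted p under 0.05 and none an adjusted one. Besides those of miR-30c-5p just given, they were miR-30a-5p, miR-30c-5p and miR-30e-5p with red-cell miRNAs set equal (0.0351, 0.0108 and 0.0368) and without control replicate 2 (0.0483, 0.0442 and 0.0436). Over all 274 miRNAs, 2.55% were called lower in Rx-Dicer (7 miRNAs) and 0% were called higher. The 7 became 0 with total counts only and 0 with a replicate block, and were fewer with any single library left out. At an unadjusted p under 0.05 edgeR gave 23 lower and 3 higher, and DESeq2's adjusted p called 11 lower and 0 higher. The 95% intervals of the members begin between −1.09 and −0.75 and all end above 0, so the missed threshold does not show that their levels were alike.

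Of the 5 members, 3 (miR-30a-5p, miR-30c-5p and miR-30e-5p) lay in both mutants below their level in either control, where 24.5% of all tested miRNAs were. Those counts hold on the TMM scale. As shares of all counts in a library, these 3 overlapped between the groups, and miR-30b-5p was higher in both mutants. How many of all tested miRNAs were higher in both as such shares was not counted. With total counts only, their median log2 fold change was 0.44, above the 0.30 of miR-30b-5p. The median log2 fold change was −0.30 for the members and 0.04 for all tested miRNAs, of which 45.6% had a negative value. In tissue samples such as these, fewer cells that hold a miRNA and less of it per cell cannot be told apart.

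The direction of these values depends on the scaling between libraries. With total counts only, the log2 fold changes were 0.09 for miR-30a-5p, 0.30 for miR-30b-5p, 0.10 for miR-30d-5p and 0.05 for miR-30e-5p, and only miR-30c-5p stayed below 0, at −0.13. The median of all tested miRNAs moved with it, to 0.44, and relative to that median the members were at −0.35, −0.15, −0.57, −0.35 and −0.39 for miR-30a-5p to miR-30e-5p. With TMM the same differences from the median were −0.34, −0.15, −0.56, −0.32 and −0.38. Setting the summed counts of 3 red-cell miRNAs equal in all libraries, elsewhere called equal red-cell miRNAs, moved the median to −0.37. The members' log2 fold changes were then −0.72, −0.52, −0.94, −0.72 and −0.76 in the same order. Relative to that median they were −0.35, −0.15, −0.57, −0.35 and −0.40. A change of scaling moves every miRNA and the median by nearly the same amount. The differences from the median were thus bound to stay alike, and their likeness is no measure of stability.

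**Figure D2:**
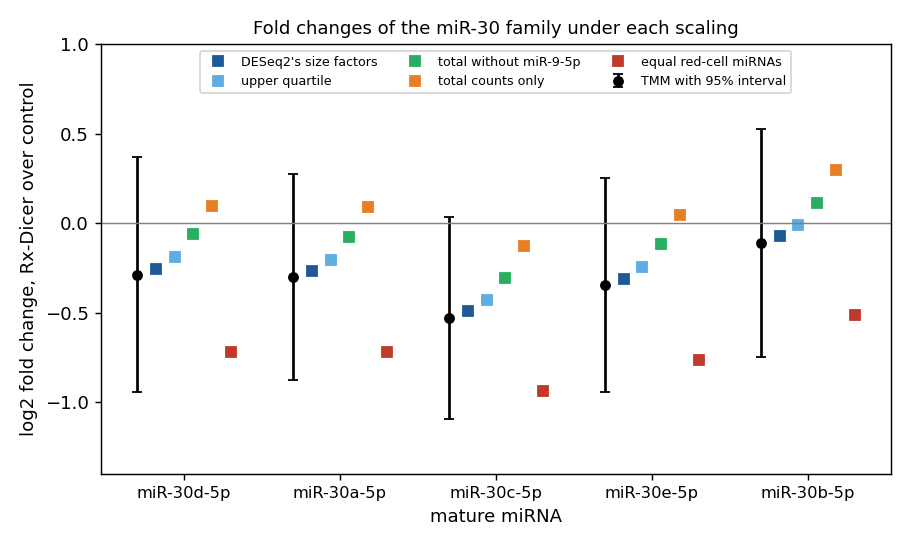
Log2 fold changes (Rx-Dicer over control) of the 5 members under 6 ways of scaling the libraries. Black points are the TMM values with their 95% intervals, and squares the other scalings without intervals. With total counts only, 4 members lie above 0 (0.05 to 0.30) and miR-30c-5p lies at −0.13. With total counts without miR-9-5p, miR-30b-5p lies above 0, at 0.11.

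A single control library also weighed on these values. Without control replicate 1 the log2 fold changes were −0.10 (miR-30a-5p), −0.09 (miR-30b-5p), −0.46 (miR-30c-5p), 0.07 (miR-30d-5p) and −0.12 (miR-30e-5p). Without control replicate 2 they were −0.49, −0.14, −0.60, −0.59 and −0.56 in the same order. miR-30d-5p thus changed its sign without control replicate 1, and miR-30c-5p was the member with the lowest value in both cases. In these fits the lone control is assumed to vary like the mutants.

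miR-384-5p, which has the seed but not the rest of the sequence, had 93 and 68 counts in the mutants and 214 and 142 counts in the controls, or 122 and 116 CPM against 178 and 154 CPM. On this scale both mutants lay below both controls. Its log2 fold change was −0.48 (SE 0.29, 95% interval −1.16 to 0.21), with an adjusted p of 0.603 in edgeR.

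The family as a whole was followed by replacing the members with their sum in the same fit, without a test. The sum was 54248 and 59856 CPM in Rx-Dicer replicates 1 and 2, and 83077 and 59816 CPM in control replicates 1 and 2, with a log2 fold change of −0.32. That value was 0.07 with total counts only, −0.75 with red-cell miRNAs set equal, −0.06 without control replicate 1 and −0.65 without control replicate 2. Control replicate 1 was the highest library, and Rx-Dicer replicate 2 and control replicate 2 were nearly equal. Which of these last libraries was the higher depends on a detail of the scaling, since the TMM factors change slightly when the sum replaces its members. With the factors of the fit on single members the sums were 54999 and 58926 CPM in the mutants and 81688 and 60949 CPM in the controls, and the groups did not overlap.

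As a share of all counts in a library, which is the same as scaling by total counts only and so also moves with the share of miR-9-5p, the family made up 6.43% of Rx-Dicer replicate 1 (95% Wilson interval 6.37% to 6.49%) and 6.69% of Rx-Dicer replicate 2 (6.62% to 6.76%). The shares in control replicates 1 and 2 were 7.57% (7.52% to 7.61%) and 4.96% (4.92% to 4.999%). Both mutants thus lay between the controls, and the spread between the controls was far wider than counting error. The intervals cover counting error only, since reads copied by PCR are not independent molecules.

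Shares within the family, in contrast, do not depend on the scaling between libraries. miR-30d-5p made up 49.3% and 54.4% of the family's counts in the mutants and 53.0% and 47.5% in the controls. miR-30a-5p made up 28.6% and 26.7% against 26.3% and 28.3%, and miR-30c-5p 11.47% and 9.58% against 10.8% and 13.8%. The groups overlapped for each of these. miR-30e-5p held 10.3% and 9.04% in the mutants and 9.64% and 10.04% in the controls, and miR-30b-5p held 0.373% and 0.295% against 0.248% and 0.340%, again with overlap. An exact two-sided permutation test, which cannot go below 0.33 with 2 libraries against 2, gave a p of 0.667 for miR-30a-5p, miR-30b-5p, miR-30c-5p and miR-30d-5p and of 1.0 for miR-30e-5p.

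The order of the members was miR-30d-5p, miR-30a-5p, miR-30c-5p, miR-30e-5p and miR-30b-5p in each of the 4 libraries. The closest neighbours in that order were miR-30c-5p and miR-30e-5p, with 5978 ± 468 against 5507 ± 254 CPM in the mutants (mean ± SD, n = 2) and 8629 ± 271 against 6997 ± 1240 CPM in the controls (n = 2). In the mutants the gap between the means was about as large as the SD of miR-30c-5p, but both were measured in the same libraries. Within single libraries miR-30e-5p was at 0.90 and 0.94 times miR-30c-5p in the mutants and at 0.89 and 0.73 times in the controls. Levels of different miRNAs also depend on how well each sequence is ligated and amplified, which was not measured here.

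To ask whether members of neighbouring hairpins kept their proportions, their log2 ratios were taken within each library. miR-30d-5p exceeded miR-30b-5p by log2 ratios of 7.05 and 7.53 in the mutants and 7.74 and 7.13 in the controls, that is 132-fold and 184-fold against 214-fold and 140-fold. These hairpins are neighbours on the same strand, and the groups overlapped (exact permutation p of 0.667). For miR-30a-5p over miR-30c-5p the log2 ratios were 1.32 and 1.48 in the mutants and 1.29 and 1.03 in the controls. For miR-30e-5p over miR-30c-5p they were −0.15 and −0.08 in the mutants and −0.16 and −0.46 in the controls. Both ratios were higher in either mutant than in either control, by narrow margins over control replicate 1, and the exact permutation p was 0.33, the smallest possible. Of all 10 pairs of members, the only other pair without overlap was miR-30b-5p over miR-30c-5p, whose hairpins are not neighbours. Its log2 ratios were −4.94 and −5.02 in the mutants and −5.44 and −5.35 in the controls, a larger difference (0.41) than for the neighbours, again with an exact permutation p of 0.33. Because miR-30c-5p comes from both clusters, neither ratio follows a single pair of hairpins.

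Other abundant miRNA families were set beside miR-30 in the same libraries. let-7, known for its rise as cells differentiate, had 7 of 10 tested members called lower with miR-98-5p counted among them, and a median log2 fold change of −1.53. These were all 7 miRNAs called by edgeR, a count that was 0 with total counts only and 0 with a replicate block. It also fell with any single library left out. The summed let-7 level was 32426 and 33859 CPM in the mutants and 94436 and 70004 CPM in the controls, without overlap. For the 4 miR-181 members the median was −0.39 and for the 2 miR-26 members −0.38, and in neither list was a member called.

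The ratio of the summed miR-30 counts to the summed let-7 counts cancels the scaling between libraries. It was 1.70 and 1.74 in the mutants and 0.865 and 0.871 in the controls, a 1.98-fold difference of the means, and each group's replicates were close together. The ratio was chosen after the values had been seen, and the exact permutation p was 0.33, the smallest possible. The same ratio to miR-181 was 1.483 and 1.498 in the mutants and 1.32 and 1.41 in the controls, and that to miR-26 was 1.75 and 2.01 against 1.77 and 1.55, with overlap. The ratio to miR-9-5p was 0.228 and 0.227 in the mutants and 0.240 and 0.116 in the controls, so both mutants lay between the controls (exact permutation p of 1.0). Its difference between the group means, 0.0495, was −0.0126 without control replicate 2.

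Among 152 miRNAs outside the family with a mean of at least 100 CPM, the pattern over the 4 libraries nearest to that of the summed family was sought by the Euclidean distance between centred log2 levels. The nearest were miR-340-5p (distance 0.105), miR-181d-5p (0.111) and miR-146b-5p (0.124). For comparison, miR-30a-5p lay at 0.102 from the sum, miR-30e-5p at 0.145, miR-30d-5p at 0.157, miR-30c-5p at 0.383 and miR-30b-5p at 0.443. miR-340-5p had 3362 and 3716 CPM in the mutants and 5502 and 3978 CPM in the controls, with the same high value in control replicate 1. With 4 libraries such a likeness is a description only.

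Tissue markers also differed between the libraries. The 7 forebrain miRNAs summed to 243510 and 262240 CPM in the mutants and 344520 and 526810 CPM in the controls, so their sum was lower in both mutants, and control replicate 2 was the highest library. Nearly all of this sum is miR-9-5p, whose log2 fold change was −0.79 with an adjusted p of 0.344 in edgeR, and miR-124-5p was at −0.72 with an adjusted p of 0.385. Only 3 of the 5 tested were lower in both mutants, where 24.5% of all tested miRNAs were. miR-92b-5p, at 2244 and 2737 CPM against 4147 and 2336 CPM, and miR-128-1-5p, at 61.8 and 81.8 CPM against 80.6 and 57.5 CPM, overlapped between the groups. None of the 5 was called, and their median log2 fold change was −0.38. The part of these in the miR-30 values was not tested. The 5 mesenchymal miRNAs, all tested and none called, summed to 11917 and 11348 CPM in the mutants and to 4443 and 11072 CPM in control replicates 1 and 2, with miR-199a-5p making up 88.3%. Of the 5, 2 were higher in both mutants and the others overlapped between the groups. Over all 274 miRNAs tested, 49 were higher in both mutants on this scale. Control replicate 1, the library with the highest summed miR-30 level, was thus the one with the lowest mesenchymal markers. It also had the lowest sums of the red-cell, white blood cell and epithelial markers given below. The part of this in the miR-30 values was not tested.

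The 3 red-cell miRNAs, of which miR-486a-5p made up 86.8%, summed to 7595 and 8504 CPM in the mutants and 5737 and 6362 CPM in the controls. The sum, miR-486a-5p and miR-451a were higher in both mutants, where 49 of all 274 tested miRNAs were. In contrast, miR-144-5p, at 18.4 and 35.8 CPM against 19.1 and 41.2 CPM (log2 fold change −0.16), overlapped. None of the 3 was called. miR-126a-5p of the endothelium had 431 and 244 CPM in the mutants and 253 and 403 CPM in the controls. The 3 miRNAs of white blood cells, led by miR-142a-5p, summed to 129 and 136 CPM against 88.1 and 139 CPM, but the tested members differed in direction. miR-142a-5p, at a log2 fold change of 0.46, was higher in both mutants and miR-150-5p, at −1.04, was lower in both, and neither was called. The 4 epithelial miRNAs, led by miR-205-5p, summed to 235 and 808 CPM against 201 and 427 CPM, and miR-141-5p among them was at 0 in 3 libraries. The part of these in the miR-30 values was not tested.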

How the data were processed

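Small RNA libraries of E11.5 rostral telencephalic primordium (2 Rx-Dicer, 2 control) were grouped by genotype as labelled. The authors deposited whole-number counts per pair of mature miRNA and precursor, made with miRDeep2 on mm10 and miRBase, without normalization. Here each mature miRNA was represented by its precursor of highest total. Those that reached 10 counts in 2 or more libraries entered a quasi-likelihood fit on genotype alone (edgeR 4.0.16 under R 4.3.3, using limma 3.58.1). Libraries were scaled by TMM, and p-values were adjusted by Benjamini-Hochberg at 0.05. The authors used DESeq2, which was an alternative here (DESeq2 1.42.0). Shares and ratios were compared with exact permutation tests (Python 3.11.15, scipy 1.17.1). The fits were tested on simulated data.

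Named were the members, their sum, miRNAs with their seed, the 3 miRNAs of nearest pattern (pseudocount 0.5 CPM), summed let-7, miR-181 and miR-26, and tissue markers. Members and lists were chosen with earlier results of these data known. Alternatives were other scalings, DESeq2, count minimums, precursor rows, a replicate block and each library left out. In settings on precursor rows, called rows were counted as distinct mature miRNAs, a change made after the row counts had been seen.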

Additional observations from a re-analysis of the deposited data

How the results depend on the processing

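Of 80 fold changes of single members under 16 alternatives, 73 kept their direction and none passed an adjusted p of 0.05 (lowest 0.118). The 7 that turned positive were, with total counts only, 0.0927 (miR-30a-5p), 0.2957 (miR-30b-5p), 0.0967 (miR-30d-5p) and 0.0486 (miR-30e-5p); with total counts without miR-9-5p, 0.1129 (miR-30b-5p); without Rx-Dicer replicate 2, 0.0133 (miR-30b-5p); and without control replicate 1, 0.0689 (miR-30d-5p). With a library left out, miR-30b-5p ran from −0.2328 to 0.0133 and miR-30d-5p from −0.5914 to 0.0689. The median of all tested miRNAs was 0.44, 0.26, 0.14, 0.07 and −0.37 with total counts, total counts without miR-9-5p, upper-quartile scaling, DESeq2's size factors and equal red-cell miRNAs, and −0.14 with no count minimum. Relative to the median, 1 of the 80 lay above 0. A change of scaling can hardly move that difference, so the scalings among these settings are no separate checks of it.

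The log2 fold change of the sum was 0.0666 when only totals were used and −0.7492 when red-cell miRNAs were set equal, and ran from −0.6541 to −0.0607 with a library left out.

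The 7 miRNAs called lower became 4 with DESeq2's size factors, 0 with total counts only, 3 with upper-quartile scaling, 11 with equal red-cell miRNAs, 3 with total counts without miR-9-5p, 11 with DESeq2's Wald test and 14 with no count minimum. On all precursor rows DESeq2 and edgeR each called 14 rows, which are 11 mature miRNAs. With a library left out the count ran from 0 to 5. No setting called a miRNA higher. The cause was not tested.

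Of 23 differences in shares within the family and in ratios of neighbours, 7 changed their sign under an alternative. With 2 libraries a group, leaving out a library can move such a difference by no more than the spread between replicates, and summing the precursors of miR-30c-5p could hardly change a ratio, so these settings are no measure of stability. The difference in the ratio of miR-30 to let-7, 0.8504, ran from 0.8283 to 0.8725 with a library left out.

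Deviations of same-numbered libraries from their group means were nearly uncorrelated (0.0854 over 274 miRNAs). With 2 libraries a group this is a single comparison, so it cannot show whether the libraries were paired. With a replicate block 0 miRNAs were called lower, the members were at −0.29, −0.12, −0.53, −0.26 and −0.34 from miR-30a-5p to miR-30e-5p, and the sum at −0.31. With 2 libraries a group, an interval of a member spans over 1 log2 unit.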
